A study of Mus musculus with 66 samples.

Results

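The 8 genes described here encode the BAP1 deubiquitinase complex, to which the methyl-CpG-binding-domain proteins MBD5 and MBD6 bind: Bap1, Asxl1, Asxl2, Asxl3, Foxk1, Foxk2, Hcfc1 and Ogt. They were taken by symbol from a table of read counts that names 30084 genes, and all 8 were measured in each of 66 RNA-seq libraries. The libraries came from cultured neurons of wildtype e16.5 mouse embryos (mid to late gestation), kept apart by sex. Neurons of each sex received lentivirus carrying a short hairpin RNA (shRNA) against Mbd5, Med13l, Chd8, Setd5, Kdm6b, Kmt2c, Ash1l, Dnmt3a or Tbr1, a nontargeting shRNA, or no virus, which gives 22 groups of 3 libraries. The virus stayed on until day 6 of culture, RNA was taken on day 10, and the doses had been chosen to leave about 50% of the target. All groups, controls included, were wildtype, and the 9 targets are genes linked to autism and to chromatin or transcription. The comparisons ask whether lowering any of them changed the transcripts of the complex that MBD5 and MBD6 join. The 3 libraries of a group are described as wells infected in triplicate, with no statement that they came from separate dissections, so p-values measure the spread between these wells, which may be technical.

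BAP1 is a nuclear deubiquitinase that removes ubiquitin from lysine 119 of histone H2A, the mark that Polycomb repressive complex 1 (PRC1) adds. It is active when bound to an ASXL protein, and each complex holds one of ASXL1, ASXL2 or ASXL3, which bring MBD5 or MBD6 with them. FOXK1 and FOXK2 are forkhead proteins that give the complex contact with DNA, HCFC1 (host cell factor 1) links it to transcription factors and histone methyltransferases, and OGT is the enzyme that places O-GlcNAc sugars on nuclear proteins and cleaves HCFC1 into its mature form.

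The promoters of 3 members whose transcripts were lower after a knockdown are shown first, so that the kind of start these genes have can be seen; capitals mark the GC box, GGGCGG or its reverse complement. The sequences are the RefSeq bases upstream of the start site in build GRCm38.p6 (the same coordinates as mm10), each read in the direction of the gene and stopped where the GENCODE gene begins. The Bap1 window is chr14:31251239-31251449 on the plus strand, the Foxk2 window chr11:121259737-121259986 on the plus strand and the Hcfc1 window chrX:73966358-73966607 on the minus strand.
Bap1: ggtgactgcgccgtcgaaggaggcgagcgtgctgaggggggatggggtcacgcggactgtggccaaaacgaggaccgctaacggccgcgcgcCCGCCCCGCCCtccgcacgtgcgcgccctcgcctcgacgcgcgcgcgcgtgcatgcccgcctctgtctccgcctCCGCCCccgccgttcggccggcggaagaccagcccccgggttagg
Foxk2: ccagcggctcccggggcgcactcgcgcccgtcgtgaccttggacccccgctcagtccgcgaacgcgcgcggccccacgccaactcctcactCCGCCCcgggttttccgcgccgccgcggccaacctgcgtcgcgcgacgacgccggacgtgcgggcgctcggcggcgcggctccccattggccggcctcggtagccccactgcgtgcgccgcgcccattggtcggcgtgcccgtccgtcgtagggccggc
Hcfc1: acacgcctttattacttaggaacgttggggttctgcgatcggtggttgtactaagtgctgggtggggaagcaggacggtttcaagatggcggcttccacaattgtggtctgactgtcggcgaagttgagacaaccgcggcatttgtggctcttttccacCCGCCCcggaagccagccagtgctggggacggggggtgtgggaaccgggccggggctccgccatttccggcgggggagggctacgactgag
The Bap1 window holds 3 GC boxes, 2 of them overlapping, and the windows of Foxk2 and Hcfc1 hold 1 each. The motifs were counted over full windows of 250 bases, which were not stopped at the GENCODE gene as the printed ones were. There the GC box was in all 7 windows listed for Bap1, Asxl1, Asxl2, Foxk2, Hcfc1 and Ogt. It was in 32.7% of the 32851 mouse promoters in the table. For 1 of the Ogt windows, the 92 bases before the GENCODE gene held 0 GC boxes. The other motifs searched on both strands were less widely shared among the 7 windows. The ETS core CCGGAA was in 4 (Asxl1, Asxl2, Hcfc1 and 1 of the Ogt windows), the YY1 core AAGATGG in those of Asxl1 and Hcfc1, the CCAAT box in that of Foxk2, and the E-box CACGTG and the CRE core TGACG in that of Bap1. The CRE core of Bap1 is not within the printed bases, which stop where the GENCODE gene begins. Among all promoters these motifs were in 12%, 4.49%, 33.8%, 6.02% and 17.8%, in that order. Foxk1 and Asxl3 were not matched. A match of letters is a description and was not tied to any change in level.

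Library totals ran from 13759741 to 66558546 counts, and the lowest count of any member in any library was 210 (Asxl2). The targets themselves stood at 22.3% to 54.3% of their nontargeting level in the 18 groups, but 3 libraries stood apart. The library labelled Setd5 shRNA male 1 had 141 CPM (a gene's counts scaled to the size of its library) of Setd5, against 133 to 149 CPM in the male nontargeting libraries, and 23.1 CPM of Kdm6b. The library labelled Kdm6b shRNA male 1 had 39.9 CPM of Kdm6b, and its Setd5 stood at 44.9 CPM. The library labelled Setd5 shRNA female 1 held reads of Y-linked genes. Kdm6b shRNA female 3, not counted among those 3, had 36.17 CPM of Kdm6b, within the 31.04 to 54.35 CPM of the female nontargeting libraries. Kdm6b shRNA female 1 and 2 had 10.7 and 21.08 CPM. After Kdm6b knockdown 0 members were called with all libraries, without Kdm6b male 1 or without Kdm6b female 3. Genes called were 156 with all libraries and 300 without Kdm6b female 3. The Foxk1, Foxk2 and Ogt values after Setd5 knockdown are given with and without the libraries that stood apart. The 12 neuron markers (among them Map2, Tubb3 and Snap25) summed to 6445 to 9309 CPM per library, and the microglia markers to 0.437 to 3.88 CPM. In bulk RNA, fewer cells of a type and less RNA per cell cannot be told apart.

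All 8 genes were expressed in these neurons, at levels that spread widely when expressed per kilobase of exon. In the 6 nontargeting libraries, Foxk2 (43.8 ± 2.65 CPM per kb, SD, n = 6) and Bap1 (41.8 ± 2.83) were highest and did not differ beyond their spread. Ogt (25.0 ± 2.63) and Hcfc1 (18.9 ± 3.84) came next. Asxl1 (8.21 ± 1.21), Foxk1 (6.31 ± 0.674), Asxl3 (3.77 ± 0.845) and Asxl2 (1.35 ± 0.133) followed, the last at a level above that of 33.5% of the genes tested. Of the summed Asxl level per kb, Asxl1 made up 61.7%, Asxl3 28.0% and Asxl2 10.3%. By this measure the RNA of Bap1 stood above the summed RNA of the Asxl genes. Of the summed Foxk level per kb, 87.4% was that of Foxk2. Levels per kb divide by all annotated exon bases of a gene, so they do not give numbers of transcript or protein molecules. Between nontargeting and no virus neurons 0 of 8 members passed the test in edgeR or DESeq2, and 0% of all genes were called. An unadjusted p under 0.05 was found for 0 of 8 members and 113 of the 16145 genes tested. The log2 differences ran from -0.08 for Asxl2 to 0.08 for Hcfc1.

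**Figure D1:**
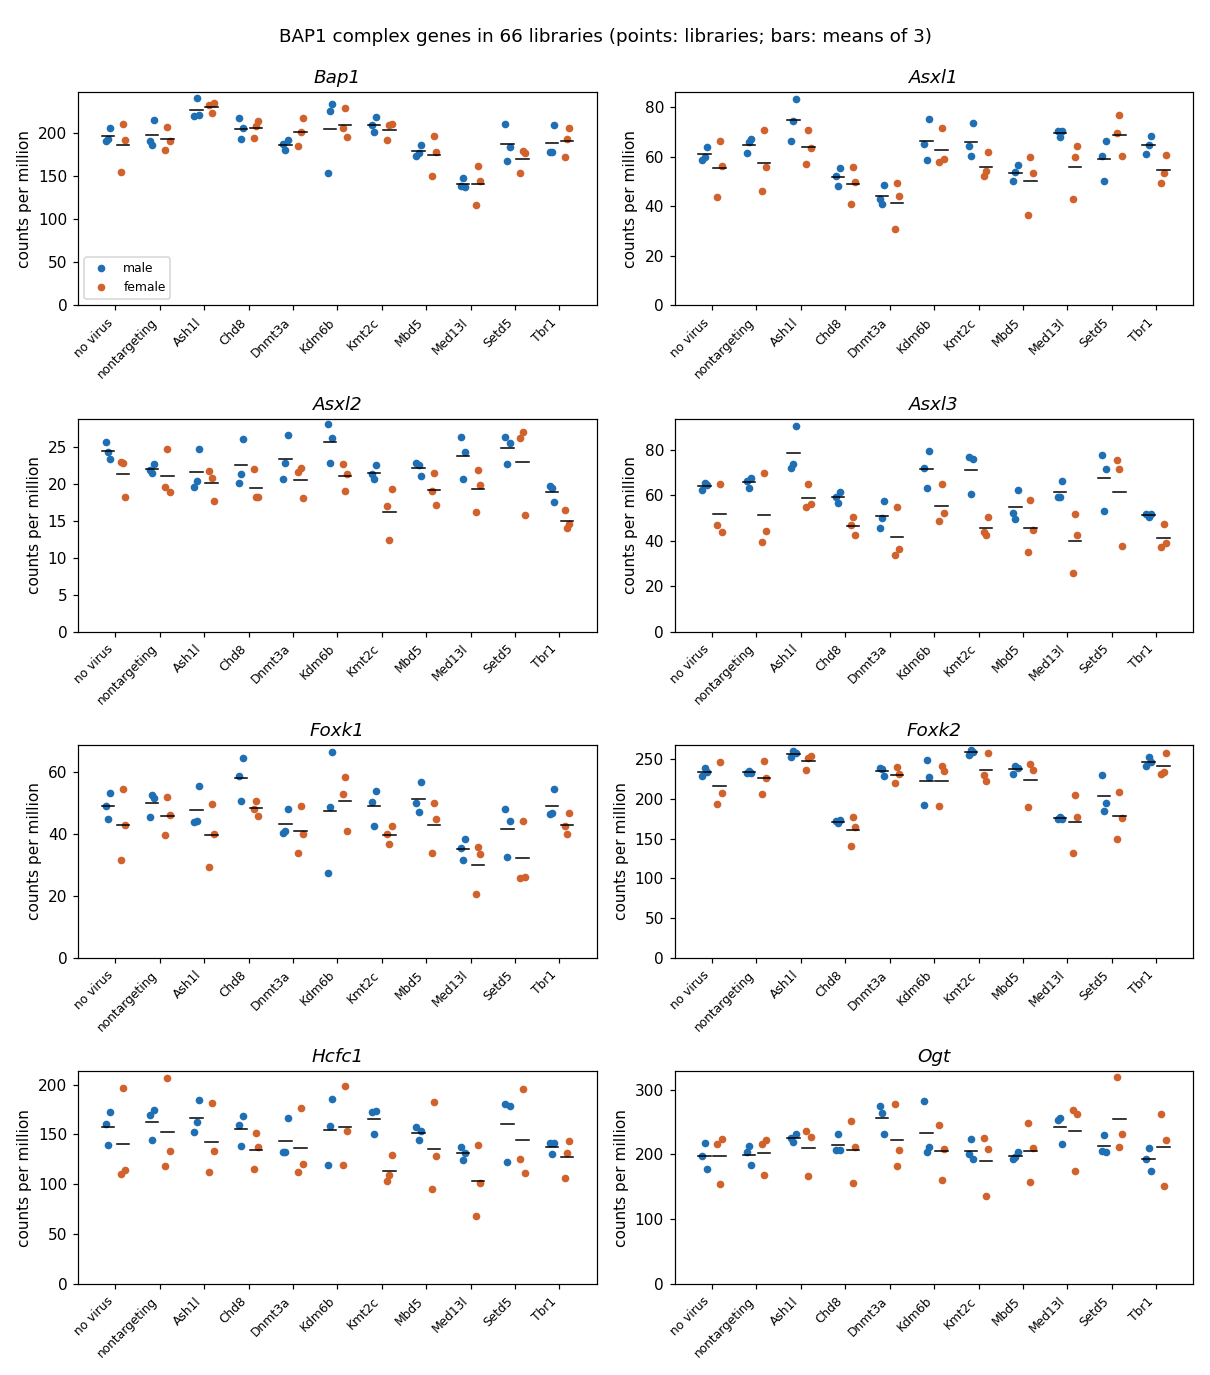
CPM of each gene (vertical axes, from 0) in the 66 libraries by treatment, male in blue and female in orange, with bars at the means of 3 libraries. Bap1, Foxk1 and Foxk2 sit below both nontargeting groups after Med13l knockdown, as does Foxk2 after Chd8 knockdown, while Hcfc1 and Ogt spread widely among female libraries.

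Against nontargeting neurons, with the sexes averaged, 7 of the 72 gene-by-knockdown tests passed an adjusted p of 0.05 (quasi-likelihood test of edgeR, p-values adjusted by Benjamini-Hochberg over the 16145 genes tested), and in all 7 the member was lower. Med13l knockdown accounted for 4: Bap1, Foxk1, Foxk2 and Hcfc1. There 24.1% of all genes tested were called, 12.3% as lower. Chd8 knockdown lowered Foxk2 (22.3% of all genes called), Setd5 knockdown lowered Foxk2 (5.3%) and Dnmt3a knockdown lowered Asxl1 (1.4%). No member was called after knockdown of Ash1l (6.16% of all genes), Tbr1 (1.33%), Kdm6b (0.966%), Kmt2c (0.694%) or Mbd5 (0.663%), and DESeq2 called none there. In that order, 1, 2, 0, 0 and 1 of the 8 had an unadjusted p under 0.05. Among the 16145 genes tested, 2849, 1598, 1862, 1111 and 1113 did. The median log2 change of the 8 genes was -0.32 after Med13l knockdown, against -0.01 over all genes, and between -0.10 and 0.12 after each of the others. So 1 knockdown lowered 4 of the 8 transcripts, with Hcfc1 at the threshold (adjusted p = 0.0488). Foxk2 was the member called most often, although its call after Setd5 knockdown held in 3 of 12 fits that left out 1 library. Asxl2, Asxl3 and Ogt passed the test in no knockdown.

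**Figure D2:**
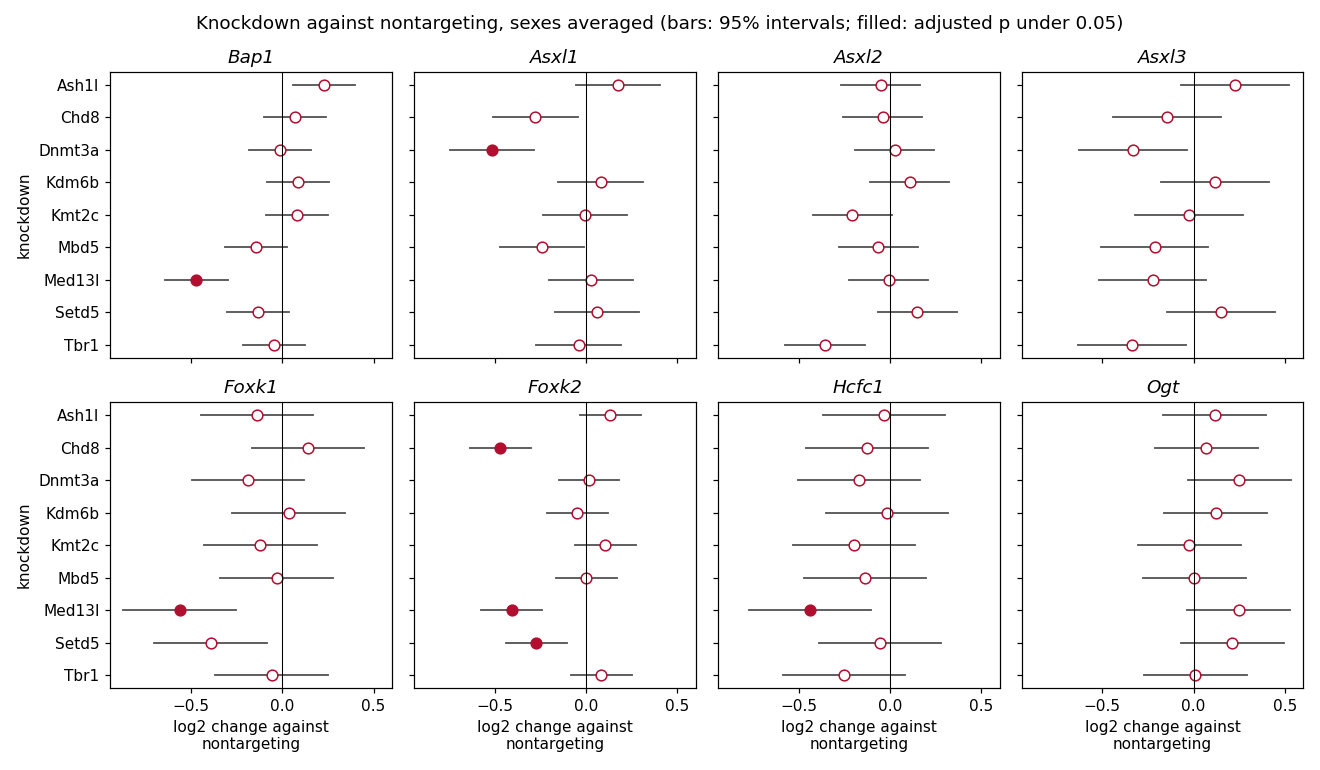
Log2 change of each gene against nontargeting neurons (horizontal axes) for the 9 knockdowns (vertical), sexes averaged, with 95% intervals; filled points passed an adjusted p of 0.05. The 7 filled points lie left of 0, 4 of them in the Med13l row.

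Markers of cell types were also called, and their counts are to be read against the share of all genes called. That share was 24.1% after Med13l, 22.3% after Chd8, 5.3% after Setd5 and 1.4% after Dnmt3a knockdown. After Med13l knockdown 4 of 6 proliferation markers were lower, with a summed level of 2.25 to 2.97 CPM per library against 4.04 to 9.20 CPM in nontargeting libraries, as were 2 of 6 astrocyte markers (68.1 to 173 CPM against 65.9 to 128 CPM), 1 of the 6 oligodendrocyte lineage markers tested and 3 of 12 neuron markers (6445 to 7697 CPM against 7757 to 8837 CPM). After Chd8 knockdown 2 neuron markers were higher and 6 lower, and 1 astrocyte marker was lower. After Setd5 knockdown 2 proliferation markers were lower, as was 1 neuron marker, and 1 neuron marker was higher. After Dnmt3a knockdown 1 neuron marker was lower and 1 astrocyte marker was higher, with a summed level of 104 to 305 CPM. Markers were also called where no member was. After Ash1l knockdown (6.16% of all genes called) 1 neuron marker was higher, and 3 neuron markers and 1 proliferation marker were lower. After Kdm6b knockdown (0.966%) 1 neuron marker was lower. The part of the markers in the changes of Bap1, Foxk1, Foxk2, Hcfc1 and Asxl1 was not tested.

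Bap1 (chr14:31251450-31259944), the catalytic subunit, fell after Med13l knockdown in both sexes. Its level was 191, 187 and 216 CPM in male nontargeting libraries and 139, 148 and 138 CPM in male Med13l-knockdown libraries. In females it was 181, 208 and 191 CPM against 117, 161 and 144.4 CPM. The groups did not overlap in either sex, and the mean stood at 72.2% of nontargeting (log2 change -0.47, SE 0.0848, adjusted p = 3.2e-05). Lack of overlap between groups of 3 libraries is given here and below as a description, and its share among all genes was not determined. In males alone it held for 4 of 8 members after Ash1l, 4 after Tbr1 and 3 after Mbd5 knockdown, where 0 were called. Across the other 8 knockdowns its log2 change ran from -0.14 (Mbd5) to 0.23 (Ash1l). After Ash1l knockdown the 6 libraries (220.3 to 241 CPM) lay above the 6 nontargeting ones, and the adjusted p was 0.106. The same value fell to 0.0457 without the 3 libraries that stood apart.

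Of the genes of the ASXL proteins, which switch BAP1 on, 1 of 3 passed in any knockdown. Asxl1 (chr2:153345829-153404007) fell after Dnmt3a knockdown to 69.9% of nontargeting (log2 change -0.52, SE 0.116, adjusted p = 0.0091). It measured 42.7, 40.8 and 48.7 CPM in the male knockdown libraries and 61.4, 65.8 and 67.0 CPM in the male controls, without overlap. In females it measured 30.7, 49.2 and 44.1 CPM against 46.0, 70.6 and 55.9 CPM, and there the ranges overlapped. Replicate 1 was lowest in both female groups. The call was lost without Dnmt3a female replicate 1 (adjusted p = 0.0848) or nontargeting female replicate 2 (adjusted p = 0.0673). Asxl1 also measured 82.5% of nontargeting after Chd8 knockdown, which did not pass (adjusted p = 0.0759) but did in the fit that pairs libraries by replicate number (adjusted p = 0.0023).

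Asxl2 (chr12:3426857-3506852) had its lowest mean of either sex after knockdown of Tbr1, a neuronal T-box factor, although the lowest single library was Kmt2c female 2 (12.47 CPM). After Tbr1 knockdown the levels were 19.7, 19.5 and 17.5 CPM in males and 16.54, 14.1 and 14.6 CPM in females, against 21.98, 21.6 and 22.7 CPM and 19.6, 24.7 and 18.9 CPM in the controls. The groups did not overlap in either sex and the mean was 78.2% of nontargeting. The value did not pass (adjusted p = 0.0941, or 0.0186 with libraries paired by number). Asxl3, on chromosome 18 from 22344883 to 22530227, is the family member found mainly in brain and measured 79.2% of nontargeting after Tbr1 knockdown (adjusted p = 0.384) and 79.5% after Dnmt3a knockdown (adjusted p = 0.411, or 0.049 with pairing). Its female libraries spread widely, from 25.9 to 75.5 CPM. Exons of Asxl1 and Asxl2 overlap those of 2500004C02Rik and 1110002L01Rik on the other strand over 2.65% and 0.972% of their length. Reads of the 2 strands cannot be told apart there unless they were counted by strand.

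The forkhead subunits gave the most calls. Foxk2 (chr11:121259990-121309896) fell after Chd8 knockdown, where its male values of 172, 170.1 and 173 CPM lay below the controls' 233, 236 and 232 CPM. Its female values were 141, 177 and 165 CPM against 206, 248 and 227 CPM. Both sexes were free of overlap, and the mean was 72.2% of nontargeting (log2 change -0.47, SE 0.0832, adjusted p = 2.1e-05). After Med13l knockdown it measured 175, 177 and 175 CPM in males and 132, 205 and 178 CPM in females, 75.3% of nontargeting (log2 change -0.41, SE 0.0832, adjusted p = 0.00019). The male libraries lay close together and the female ones spread, with replicate 1 lowest and replicate 2 highest in both the knockdown and the control.

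After Setd5 knockdown Foxk2 measured 231, 185 and 196 CPM in males and 150.1, 209 and 177 CPM in females, 82.8% of nontargeting (log2 change -0.27, adjusted p = 0.0412). The highest male value is that of the library in which Setd5 was not lowered. Without the 2 male libraries that went against their labels the log2 change was -0.32 (adjusted p = 0.0093), and without Setd5 female 1 as well it was -0.27 (adjusted p = 0.0544). The call held in 3 of 12 fits that left out 1 of the libraries compared. It was lost without Setd5 female 1 or 3, Setd5 male 2 or 3, nontargeting female 2 or 3, or nontargeting male 1, 2 or 3, with adjusted p up to 0.193. Foxk1 (chr5:142401497-142462011) fell after Med13l knockdown, from 45.5, 52.5 and 51.6 CPM to 35.3, 31.6 and 38.2 CPM in males and from 39.5, 52.0 and 46.1 CPM to 20.6, 35.7 and 33.5 CPM in females. No knockdown library reached its sex's controls, and at 67.7% of nontargeting this was the largest change of any member (log2 change -0.56, SE 0.154, adjusted p = 0.0052). After Setd5 knockdown Foxk1 measured 76.2% of nontargeting (log2 change -0.39, adjusted p = 0.142, or 0.0123 with pairing). Without the 2 male libraries that went against their labels its log2 change was -0.45 (adjusted p = 0.054), and without Setd5 female 1 as well it was -0.38 (adjusted p = 0.175). After Chd8 knockdown, which lowered Foxk2, Foxk1 had a log2 change of 0.14 (95% interval -0.17 to 0.45), and the difference between the 2 genes was not tested.

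Hcfc1 and Ogt are both X-linked, and only Hcfc1 passed the test in any of the 9 knockdowns. Hcfc1 (chrX:73942792-73966357), the scaffold, had log2 changes from -0.44 to -0.01 and fell after knockdown of Med13l (73.9% of nontargeting, log2 change -0.44, SE 0.167, adjusted p = 0.0488). There it measured 137, 124 and 132 CPM in males against 169.5, 144.3 and 174 CPM, and 68.6, 139.8 and 102 CPM in females against 118, 207 and 133 CPM. The female ranges overlapped. The call sat at the threshold: it held in 4 of 12 fits that left out 1 of the libraries compared, and without Med13l female replicate 1 the log2 change was -0.31 (adjusted p = 0.222), without nontargeting female replicate 2 it was -0.29 (adjusted p = 0.26). It was also lost without Med13l female 3, without any 1 of the Med13l male libraries, and without nontargeting male 1 or 3.

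Ogt (chrX:101640060-101684351), the O-GlcNAc transferase, had log2 changes from -0.02 to 0.25 and passed the test in none of them. Its largest values followed Dnmt3a knockdown (118.9% of nontargeting, adjusted p = 0.596) and Med13l knockdown (118.7%, adjusted p = 0.202). After Dnmt3a knockdown it measured 275, 264 and 231 CPM in males against 203, 213 and 183 CPM, without overlap, and 278, 182 and 207 CPM in females against 215, 168 and 223 CPM, with overlap. With libraries paired by replicate number the Dnmt3a value passed (adjusted p = 0.0161), and so did the one after Setd5 knockdown (115.7% of nontargeting, adjusted p = 0.462 without and 0.0272 with pairing). The highest Ogt level there, 319 CPM, was that of Setd5 female 1, the library with reads of Y-linked genes, and the other 5 lay between 203 and 232 CPM. Without the 3 libraries that stood apart the log2 change went from 0.21 to 0.12 (adjusted p = 0.794), or to 0.20 with pairing (adjusted p = 0.0394). The 9 knockdowns were set against the same 6 nontargeting libraries, so a gene's 9 values are not independent.

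With the pairing, 15 of the 72 tests passed, 4 with the member higher and 11 lower, and the 7 calls above were among them. Under that fit the share of all genes called also rose: to 41.5% for Med13l, 36.9% for Chd8, 17.2% for Ash1l, 16.2% for Setd5, 7.86% for Kdm6b, 6.97% for Dnmt3a, 6.57% for Tbr1, 3.32% for Mbd5 and 2.97% for Kmt2c. Members called there per knockdown were 5 for Med13l, 3 each for Dnmt3a and Setd5, 2 for Chd8, 1 each for Ash1l and Tbr1, and 0 for Kdm6b, Kmt2c and Mbd5. Replicate numbers were taken as pairing where deviations from the group mean had r above 0.1 in every pair of libraries. That held in both sexes for Chd8, Dnmt3a, Kmt2c, Mbd5, Setd5 and Tbr1, but not for Ash1l, Kdm6b or Med13l. The cut was a choice. The lowest male r was 0.104 for Dnmt3a, which passed it narrowly, and 0.019 for Med13l, which did not.

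Knockdown of Mbd5, whose product binds the complex, gave no call among its transcripts. Mbd5 itself fell to 36.8% of nontargeting in males and 32.9% in females. The largest difference among the 8 genes was that of Asxl1, at 50.2, 53.6 and 56.6 CPM in males and 36.6, 59.9 and 53.3 CPM in females (log2 change -0.24, SE 0.115, adjusted p = 0.68). The male values lay below the male controls and the female ones overlapped. The 95% intervals of the 8 log2 changes lay between -0.51 (Asxl3) and 0.29 (Ogt). Mbd6, the paralogue of Mbd5, measured 11.5 CPM after Mbd5 knockdown and 11.4 CPM in the controls (log2 change 0.02, not called).

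Tested in each sex alone, 3 of 72 tests passed in males and 3 in females, and they were the same: Bap1 and Foxk2 after Med13l knockdown and Foxk2 after Chd8 knockdown. In those comparisons 8.06% and 9.84% of all genes were called in males and 10.2% and 9.33% in females. After Med13l knockdown Bap1 changed by -0.49 in males (adjusted p = 0.0057) and -0.46 in females (adjusted p = 0.0084), and Foxk2 by -0.41 (adjusted p = 0.0187) and -0.40 (adjusted p = 0.0181). After Chd8 knockdown Foxk2 changed by -0.45 in males (adjusted p = 0.0085) and -0.49 in females (adjusted p = 0.0034). With 3 wells a group, 5 of these 6 calls were lost in at least 1 fit that left out a library compared, and the male Foxk2 call after Chd8 knockdown was kept in 6 of 6. The female calls after Med13l knockdown were lost without Med13l female 1 (adjusted p = 0.178 for Bap1 and 0.352 for Foxk2) or nontargeting female 2 (0.0714 and 0.146), and the female Foxk2 call after Chd8 knockdown without Chd8 female 1 (0.0754). The male Bap1 call was lost without nontargeting male 3 (0.0564), and the male Foxk2 call after Med13l knockdown without any 1 of the 6 male libraries compared (up to 0.0724), although its log2 change stayed between -0.42 and -0.40. No member was called in either sex for the others, in which 1.98% and 1.1% of genes (males and females) were called for Ash1l, 0.111% and 0.118% for Dnmt3a, 0.0867% and 0% for Kdm6b, 0.0867% and 0.0991% for Kmt2c, 0.0619% and 0.0557% for Mbd5, 0.0557% and 3.12% for Setd5, and 0.217% and 0.0619% for Tbr1. With libraries paired by number, 17 of the 144 single-sex tests passed. Asxl1 was lower after Dnmt3a knockdown in males (adjusted p = 0.00095) and females (0.0067), and Ogt was higher there in males (0.034), with 1.46% and 1.29% of all genes called in males and females. After Setd5 knockdown Foxk1 (0.0252) and Foxk2 (0.0048) were lower and Ogt higher (0.0196) in females, where 13% of all genes were called, and 0 members passed in males, where 1.06% were. The Ogt value was lost without the 3 libraries that stood apart (adjusted p = 0.0936). After Chd8 knockdown 2 members passed in males and 1 in females (22.1% and 21.1% of all genes). After Med13l knockdown 4 passed in each sex (23.8% and 27.9%), with numbers that paired the female libraries but not the male ones. The difference of the effect between the sexes was called for 0 of 72 tests in edgeR and in DESeq2, and none had an unadjusted p under 0.05. Of the 16145 genes tested, from 66 (Mbd5) to 439 (Setd5) did. Among all genes the largest share called for that difference was 0.0186%, for Setd5.

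**Figure D3:**
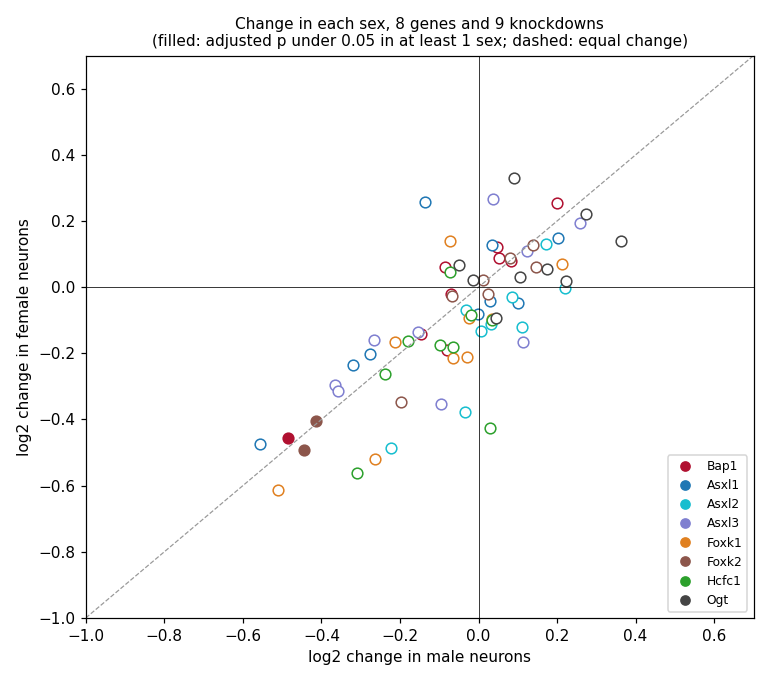
Log2 change against nontargeting in male (horizontal) and female (vertical) neurons for the 8 genes and 9 knockdowns, with equal change on the dashed line; filled points passed an adjusted p of 0.05 in at least 1 sex. The 3 filled points, Bap1 and Foxk2 after Med13l and Foxk2 after Chd8 knockdown, lie near the dashed line.

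Between the sexes, averaged over the 11 treatments, 5 of the 8 members were higher in males (Asxl1, Asxl2, Asxl3, Foxk1 and Hcfc1), where 25.5% of all genes were called and 12.2% were higher in males. Asxl3 differed most, at a log2 difference of 0.37 (63.4 CPM in males and 49.1 CPM in females), and was higher in males in 11 of 11 treatments. Asxl2 followed at 0.22, also in 11 of 11. Foxk2, which did not pass (adjusted p = 0.13), was higher in males in 11 of 11 as well, and Asxl1, Foxk1 and Hcfc1 were in 10 of 11. Asxl1 and Hcfc1 kept their call in 42 and 23 of 66 fits that left out 1 library. The X-linked Ogt did not pass (0.02, adjusted p = 0.831). The 33 libraries of a sex carry only 3 replicate numbers, however. Over means of the replicate numbers, 3 against 3, the exact two-sided permutation p was 0.1 for Asxl2 and Asxl3, the smallest this design allows, and 0.3 to 0.9 for the other members. Within the nontargeting libraries alone 0 of 8 members were called by edgeR, and 0.0434% of all genes were called. An unadjusted p under 0.05 was found for 0 of 8 members and 242 of the 16145 genes tested.

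Within the treatment groups, libraries high in Ogt were low in Hcfc1. In females, all 11 libraries numbered 1 had Ogt above their group's mean, and 0 of the 11 numbered 2 did. For Hcfc1 the order was reversed, with 0 of 11 above the mean at number 1 and 10 of 11 at number 2. Mean levels over the 11 treatments were 252 CPM of Ogt and 108 CPM of Hcfc1 in female libraries numbered 1, and 165 CPM of Ogt and 170.1 CPM of Hcfc1 in those numbered 2. In males the spread was smaller, and number 3 was the one with Hcfc1 above its group mean in 11 of 11 and Ogt in 2 of 11. Over the 66 libraries, deviations from the group mean of Ogt and Hcfc1 had r = -0.74, while 21 of the 28 pairs of members had a positive r. Ogt had a negative r with each other member except Asxl2 (r = 0.09). The members of a pair are read in the same library and share its depth, so the values are a description. Whether the number stands for a dissection, a plate or a day is not stated.

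**Figure D4:**
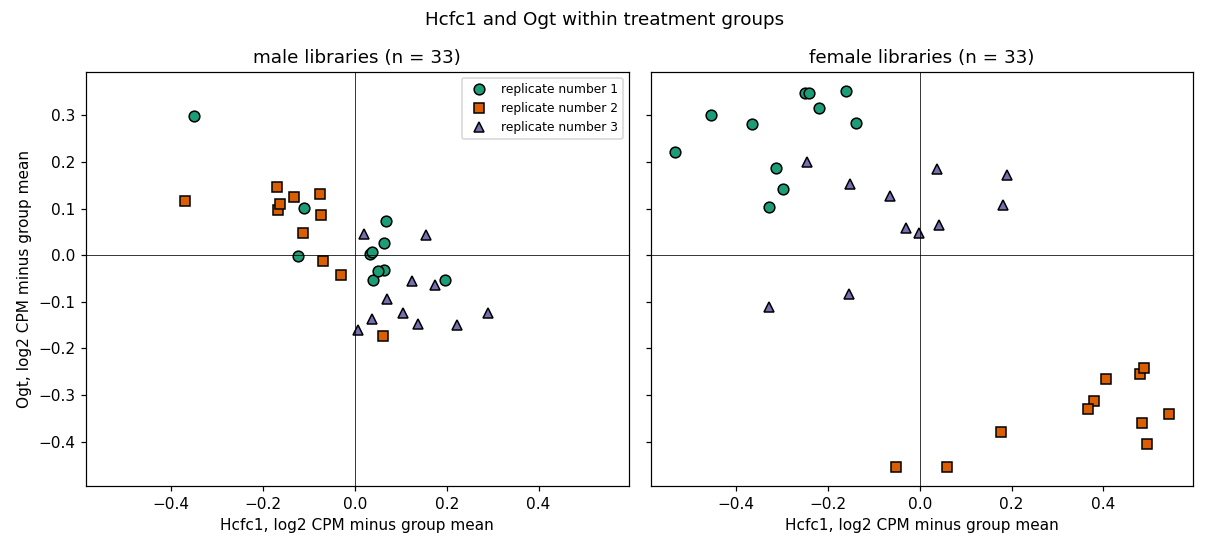
Deviation of log2 CPM from the mean of the library's own group for Hcfc1 (horizontal) and Ogt (vertical), in 33 male (left) and 33 female (right) libraries, marked by replicate number. Female libraries numbered 2 fall at low Ogt and those numbered 1 at high Ogt and low Hcfc1.

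The wider pathway was covered by 5 lists. Of 4 other proteins that associate with the complex (Mbd5, Mbd6, Kdm1b and Ube2o), Kdm1b, a histone H3 lysine 4 demethylase, rose after Med13l, Ash1l and Chd8 knockdown, with log2 changes of 0.51, 0.50 and 0.42 (adjusted p = 0.00011, 0.00061 and 0.0014). No other gene of that list passed apart from Mbd5 in its own knockdown. In the 8 other knockdowns Mbd5 ran from -0.13 to 0.26 and Mbd6 from -0.28 to 0.04 on the log2 scale. The counts that follow are to be read against the shares of all genes called, which were 22.3% after Chd8, 24.1% after Med13l, 6.16% after Ash1l, 5.3% after Setd5 and 1.4% after Dnmt3a knockdown. Of 24 subunits of PRC1, which places the mark that BAP1 removes, 1 rose and 8 fell after Chd8 knockdown (median log2 change -0.15, against 0.00 over all genes), 2 rose and 3 fell after Med13l, 2 rose and 1 fell after Ash1l, and 2 fell after each of Dnmt3a and Setd5. Rybp, a stimulating subunit of variant PRC1, fell after Med13l knockdown from 47.9 to 26.5 CPM (log2 change -0.86, adjusted p = 1.3e-09). Bmi1 fell after Ash1l knockdown from 60.2 to 34.4 CPM (log2 change -0.81, adjusted p = 6.3e-05). It also fell after Setd5 (-0.64, adjusted p = 0.003) and Chd8 knockdown (-0.46, adjusted p = 0.013). Phc2 rose after Chd8 knockdown (0.46, adjusted p = 0.00092) and Ash1l knockdown (0.35, adjusted p = 0.0364) and fell after Med13l knockdown (-0.30, adjusted p = 0.0355).

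Of 19 partners of HCFC1, 4 rose and 2 fell after Chd8 knockdown, 5 rose and 3 fell after Med13l, and 1 rose after each of Ash1l and Setd5. Gabpa, an ETS factor, rose after Chd8 knockdown from 26.0 to 43.4 CPM (log2 change 0.74, adjusted p = 5.1e-07), as did Rbbp5, a subunit shared by the MLL and SET1 methyltransferases (0.48, adjusted p = 1.1e-05). Rbbp5 also rose after Ash1l knockdown (0.28, adjusted p = 0.0263). E2f3 fell after Med13l knockdown from 25.5 to 14.2 CPM (-0.84, adjusted p = 1.8e-06) and also after Chd8 knockdown (-0.51, adjusted p = 0.0025). Among 5 other H2A deubiquitinases only Usp3 passed, higher after Med13l knockdown (0.42, adjusted p = 0.0142). Among 8 genes of O-GlcNAc removal and hexosamine synthesis, the counterpart and supply of OGT, only Nagk passed, lower after Chd8 knockdown (-0.26, adjusted p = 0.0227). After knockdown of Kdm6b, Kmt2c, Mbd5 and Tbr1 no gene of the 5 lists was called, the targeted Mbd5 aside.

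Across the 22 group means, the gene most like each member in log2 CPM was Natd1 for Bap1 (r = 0.93), Bace1 for Asxl1 (0.87), Dst for Asxl2 (0.87), Zfp335 for Asxl3 (0.87), Bcr for Foxk1 (0.92), Clcn4 for Foxk2 (0.94), Ep400 for Hcfc1 (0.95) and Lyrm9 for Ogt (0.79). Among the members the closest pair was Asxl3 and Hcfc1 (r = 0.81), and the most opposed was Foxk1 and Ogt (r = -0.50). The points share libraries and controls, so these values describe the table and carry no test.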

How the data were processed

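Polyadenylated RNA of 66 libraries was sequenced from stranded libraries. Per the submitters' processing notes, STAR, featureCounts and mm10 were used; versions, annotation, strand setting and the counting of read pairs are not given in the sources used here. The authors deposited raw counts per gene in 1 table of 48716 rows. Columns for 66 libraries were matched to the labels by target, sex and number, with the table's Luc columns taken as the nontargeting control; 6 further columns were not used here. Rows without a symbol (0.69% to 1.41% of a library's counts) were left out and rows sharing a symbol were summed. Libraries held 13759741 to 66558546 counts and at least 210 of any member, so the number of wells limits precision.

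Genes passing edgeR's filterByExpr (16145) were scaled by TMM and fitted by group with glmQLFit in edgeR 4.0.16 (R 4.3.3), and contrasts were tested with glmQLFTest at a Benjamini-Hochberg adjusted p of 0.05. SEs are derived from the F statistic. CPM uses TMM-scaled library sizes, and levels per kb use GENCODE vM21 exon lengths, from which coordinates were also taken. The fit was also run on simulated Med13l and nontargeting counts, with larger changes than any member's and no differences between replicate numbers. That run checks the code and does not measure accuracy for the changes reported here. Replicate numbers were taken to pair libraries where every pair's correlation of deviations exceeded 0.1, which held in both sexes for 6 of 9 knockdowns; a fit with number within sex as a block, DESeq2 1.42.0 and other scalings, filters and sample sets were alternatives. Members, lists and tests were chosen with earlier results of these data known. All 8 members are named throughout; from each list, up to 3 genes with the smallest adjusted p, Mbd5 and Mbd6, and the gene most correlated with each member. Figures were drawn with matplotlib 3.10.9.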

Additional observations from a re-analysis of the deposited data

How the results depend on the processing

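Of the 7 calls with sexes averaged, Bap1, Foxk1 and Foxk2 after Med13l knockdown and Foxk2 after Chd8 knockdown passed in each of the 12 alternatives and in each of the 12 fits without 1 of the libraries compared. Asxl1 after Dnmt3a knockdown passed in 11 alternatives and 10 such fits, Foxk2 after Setd5 knockdown in 7 and 3, and Hcfc1 after Med13l knockdown in 6 and 4. No called value changed sign.

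The counts that follow are of tests passed, so a gene that passed in several comparisons is counted for each. With the replicate block, calls of members rose from 7 to 15 (sexes averaged) and from 6 to 17 (each sex). Calls of pathway genes rose from 42 to 89. The share of all genes called with sexes averaged rose too, as given above. The block without the 3 libraries that stood apart, chosen after seeing the data, gave 18, 19 and 103 calls. The share of all genes called in that fit was not determined, so this rise cannot be read as particular to the complex. For knockdowns whose numbers do not pair both sexes, the block added Ogt after Med13l (0.24, adjusted p = 0.0034) and Bap1 after Ash1l knockdown (0.23, adjusted p = 0.0135). Fitting only the libraries compared gave 4 and 2 calls of members, and the share of all genes called there was not determined. For males against females, 3 in place of 5 members passed without a filter and without the 3 libraries that stood apart. Each of the 66 libraries was also left out in turn, with the comparisons that use it refitted. Calls of members then ran from 4 (without nontargeting female replicate 2) to 8 (sexes averaged) and from 4 to 8 (each sex). They were 3 to 5 for male against female, and 0 for the difference between sexes and for the virus. Calls of pathway genes ran from 33 to 46. Genes called with sexes averaged moved too, from 2621 to 5007 for Med13l and from 456 to 1459 for Setd5. The cause of these shifts was not tested. RLE scaling and no filter each left 5 of the 7 calls with sexes averaged. Each lost Hcfc1 after Med13l and Foxk2 after Setd5 knockdown.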
